A study of Mus with 2 samples.

Results

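The genes described here, measured in interscapular brown adipose tissue (iBAT), were the secreted adipose factors Lep, Adipoq, Retn and Cfd, the cell-surface genes Npr3 and Slc7a10, and the intracellular genes Nnat, Sncg and Nnmt. They were taken as a fixed list that was chosen with earlier results of these data known. They made up 9 of the 32285 genes in the matrices, and each was found under 1 gene identifier. The questions were whether their level in the Wtap-BKO library was carried by all adipocyte nuclei or by few, and which of them were detected in the same nucleus.

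The data were droplet single-nucleus RNA-seq (snRNA-seq) profiles of iBAT from C57BL/6 mice 8 weeks old. One library, called the control library below, came from Wtap flox/flox mice, in which exon 4 of Wtap lies between loxP sites and which carry no Cre. The other library came from mice with the same floxed alleles and UCP1-iCre, a Cre placed behind the last exon of Ucp1, so that recombination is limited to cells that express Ucp1 and other cell types of the tissue keep the gene. Each library pooled nuclei of 4 mice that cannot be told apart, so there was 1 library per genotype, no replicate and no test. All intervals below are 95% intervals that cover counting error only, and genotype cannot be told apart from any other difference between the libraries.

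Adipokines are proteins that adipocytes release into the circulation. Leptin, encoded by Lep, reports fat stores to the brain and is a classical product of white fat, whereas adiponectin, encoded by Adipoq, and adipsin (complement factor D), encoded by Cfd, are made by brown and white adipocytes. Slc7a10, a neutral amino acid transporter also called ASC1, is widely used as a surface marker of white adipocytes.

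The matrices held 9494 nuclei with 10770604 unique molecular identifiers (UMIs) for Wtap flox/flox and 8772 nuclei with 13945673 UMIs for Wtap-BKO, with medians of 954 and 1306 UMIs per nucleus. Mitochondrial genes took 7.60% and 11.7% of UMIs, and 33.0% and 74.8% of nuclei had over 5% mitochondrial UMIs. The libraries shared 20 barcodes. Wtap itself, the targeted gene, had 383 and 402 UMIs in adipocyte-like nuclei, a log2 ratio of -0.06 (-0.27 to 0.14). Counts from 3′ libraries need not come from the floxed exon, so this neither checks the deletion nor the label, and the second library is called here the library labelled Wtap-BKO. Ucp1, which drives the Cre, had 1148 and 2149 UMIs in adipocyte-like nuclei, 0.77 on the log2 scale (0.67 to 0.87). Of the adipocyte-like clusters described below, it was higher in clusters 0, 1 and 2 (1.42, 0.93 and 0.29). It was lower in cluster 8 (-1.23, -1.95 to -0.48), and in cluster 10 the interval held 0. In nuclei that were not adipocyte-like Ucp1 was lower (-1.04, -1.22 to -0.86). Macrophage- and T-cell-like nuclei were 4.33% and 21.3% of all nuclei.

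Of 14 clusters made without the 9 genes and Wtap, 5 were called adipocyte-like from 12 general adipocyte markers such as Plin1 and Lipe. They held 6725 nuclei (7576367 UMIs) of the control library and 4922 nuclei (8316134 UMIs) of the library labelled Wtap-BKO. Cluster 0 was led by Cabcoco1, Lgr6 and Gmpr, cluster 1 by Ttn, Amigo1 and Pm20d1, and cluster 2 by Ighg2b, Muc1, Nudt18 and mitochondrial genes. Cluster 8 was led by Slc7a10, Chst1, Cyp2e1 and Trhde and held 207 and 503 nuclei, and cluster 10 was led by interferon-responsive genes such as Gbp10, Iigp1 and Ifit1 and held 127 and 349 nuclei. Cluster 6, led by mitochondrial genes, and cluster 12, led by neural genes such as Cadm2 and Chl1, stayed unnamed and held 429 and 361 nuclei and 40 and 73 nuclei. Leading genes of cluster 8 differed in level between the libraries, so cluster sizes are given as denominators and not as results. The summed level of the 12 adipocyte markers was 13081 to 20653 UMIs per 1e+06 UMIs (CPM) across these clusters in the control library and 16254 to 28744 CPM in the other, with cluster 8 highest in both and all 12 markers detected in each cluster.

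In adipocyte-like nuclei all 9 genes had a higher CPM in the library labelled Wtap-BKO. Of these, 7 reached at least 1 on the log2 scale, against 14.7% of the 14070 genes with at least 20 UMIs. With each of the 5 clusters given equal weight, 4 did and the median of the 9 genes was 0.93. None of the 9 reached -1, against 4.21% of those genes. The median log2 ratio of the 9 genes was 1.58 and that of all 14070 genes was 0.07. The 9 genes were chosen with earlier results of these data known, so these counts and medians describe them and are not a test. Leaving mitochondrial UMIs out of the total raised each ratio by 0.11.

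**Figure D1:**
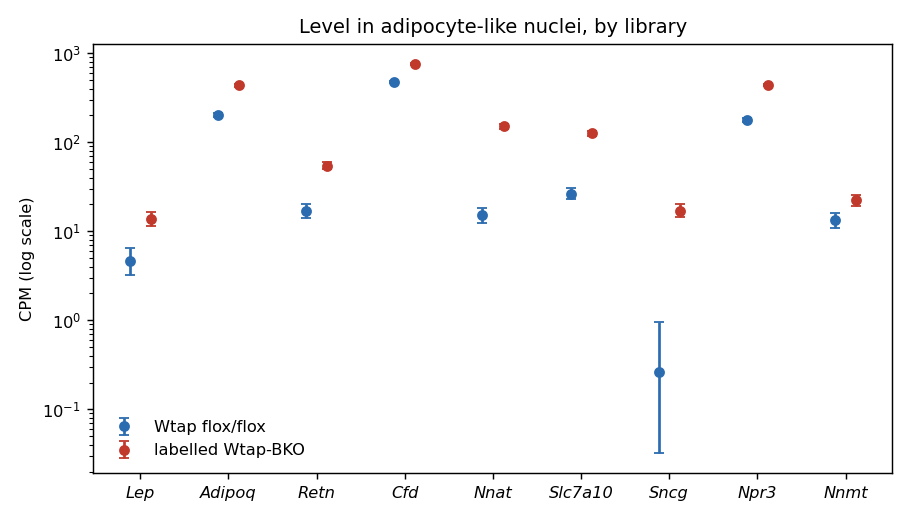
Level of each gene in adipocyte-like nuclei of the control library (blue) and the library labelled Wtap-BKO (red), in CPM on a log axis. Points are 1 library each and bars are exact Poisson 95% intervals. Every red point lies above its blue point, with the widest gap for Sncg, which had 2 UMIs in the control library.

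Among the secreted factors, Lep (chromosome 6, 29060221 to 29073876, build GRCm38.p6 as for all positions here) had 35 UMIs in adipocyte-like nuclei of the control library and 115 in the library labelled Wtap-BKO. These were 4.62 and 13.8 CPM, a log2 ratio of 1.58 (1.02 to 2.17). Adipoq (chromosome 16, 23146536 to 23157968) had 1525 and 3608 UMIs, or 201 and 434 CPM, a log2 ratio of 1.11 (1.02 to 1.20). Both genes were thus higher beyond counting error, but Lep rested on few molecules in both libraries. Retn (chromosome 8, 3655770 to 3659818), which encodes resistin, a secreted peptide of mouse white fat, had 129 and 454 UMIs, or 17.0 and 54.6 CPM, a log2 ratio of 1.68 (1.40 to 1.97). Cfd (chromosome 10, 79890853 to 79892655), the protease that starts the alternative complement pathway, had 3610 and 6215 UMIs, or 476 and 747 CPM, a log2 ratio of 0.65 (0.59 to 0.71). Cfd had the smallest ratio of the 9 genes.

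Npr3 (chromosome 15, 11839896 to 11907837) encodes the natriuretic peptide clearance receptor, which removes the peptides that stimulate lipolysis. It had 1361 and 3635 UMIs, or 179.6 and 437 CPM, a log2 ratio of 1.28 (1.19 to 1.37). Slc7a10 (chromosome 7, 35186095 to 35201116) had 200 and 1043 UMIs, or 26.4 and 125 CPM, a log2 ratio of 2.25 (2.03 to 2.47).

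Nnat (chromosome 2, 157560078 to 157562525) encodes neuronatin, an imprinted small membrane protein of the endoplasmic reticulum. It had 115 and 1254 UMIs, or 15.2 and 151 CPM, a log2 ratio of 3.31 (3.04 to 3.60). Sncg (chromosome 14, 34370274 to 34374669), which encodes gamma-synuclein and is known from neurons and white adipocytes, had 2 and 141 UMIs, giving 6.01 on the log2 scale (4.13 to 9.06). Nnmt (chromosome 9, 48538002 to 48607655) encodes nicotinamide N-methyltransferase, which uses the methyl donor S-adenosylmethionine. It had 101 and 185 UMIs, or 13.3 and 22.2 CPM, a log2 ratio of 0.74 (0.38 to 1.10). Sncg, on 2 control UMIs, and Nnat, at rank 124 of the 14070 genes, had the highest ratios of the 9 genes, and Nnmt and Cfd the lowest, at ranks 2890 and 3260.

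The 9 genes differed in how their UMIs lay over the adipocyte-like clusters. Adipoq, Npr3 and Cfd were higher in the library labelled Wtap-BKO in each of the 5 clusters, with intervals above 0. The log2 ratio of Npr3 ran from 1.15 in cluster 10 to 2.20 in cluster 8, that of Adipoq from 0.88 to 1.28 and that of Cfd from 0.22 in cluster 2 to 0.87 in cluster 10. In cluster 0, the cluster with the largest number of control nuclei, Npr3 was at 202 and 512 CPM and Adipoq at 175 and 323 CPM. For these 3 genes the higher level was therefore not held by 1 cluster.

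Slc7a10 and Retn were held largely by cluster 8 in both libraries. This cluster had 3.63% and 12.9% of all adipocyte-like UMIs, yet 82.0% and 87.0% of the Slc7a10 UMIs and 49.6% and 62.6% of the Retn UMIs. Inside cluster 8 Retn was at 233 CPM (179 to 297) and 265 CPM (235 to 297), a log2 ratio of 0.19 (-0.21 to 0.60), and Slc7a10 was at 596 and 845 CPM, a log2 ratio of 0.50 (0.26 to 0.75). Both ratios were below those over all adipocyte-like nuclei, and with each of the 5 clusters given equal weight the ratios were 0.43 for Retn and 0.58 for Slc7a10. Outside cluster 8 Retn was at 8.90 and 23.5 CPM. Macrophage- and T-cell-like nuclei, used here as background, were at 10.8 CPM (3.50 to 25.2) and 23.8 CPM (18.4 to 30.2). These intervals held the values of Retn outside cluster 8. In clusters 0, 1, 2 and 10 of the library labelled Wtap-BKO Retn was at 13.2, 22.3, 32.0 and 31.5 CPM. Slc7a10 outside cluster 8 was at 4.93 and 18.8 CPM, against 4.31 and 35.1 CPM in macrophage- and T-cell-like nuclei. The latter came from 2 and 99 UMIs, with up to 12 in a single nucleus of the library labelled Wtap-BKO. The log2 ratios outside cluster 8 were 1.40 for Retn and 1.93 for Slc7a10. Whether the UMIs outside cluster 8 were the nuclei's own RNA or free RNA was not tested.

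Lep and Nnmt were also highest in cluster 8 but lay largely outside it, on few UMIs. Lep was at 25.4 CPM (10.2 to 52.4) and 36.3 CPM (25.8 to 49.7) in cluster 8, from 7 and 39 UMIs, and its ratio there, 0.51, had an interval of -0.66 to 1.92. In clusters 1 and 2 the Lep ratio was 2.08 (0.73 to 3.68) and 1.28 (0.12 to 2.62), and in clusters 0 and 10 the interval held 0. Outside cluster 8 Lep was at 3.83 CPM (2.55 to 5.54) and 10.5 CPM (8.27 to 13.1), while macrophage- and T-cell-like nuclei were at 6.47 CPM (1.33 to 18.9) and 7.45 CPM (4.61 to 11.4), so that the intervals overlapped. Nnmt was at 65.4 and 75.5 CPM in cluster 8, a log2 ratio of 0.21 (-0.54 to 1.03), and at -0.06, -0.16 and 0.13 on the log2 scale in clusters 0, 1 and 2. In cluster 10 it was at 12.7 and 48.0 CPM, from 2 and 32 UMIs, a log2 ratio of 1.91 (-0.06 to 5.02), and this cluster held 17.3% of the Nnmt UMIs of the library labelled Wtap-BKO with 8.02% of all adipocyte-like UMIs. The interval of Nnmt lay above 0 in no single cluster of the 5. Without cluster 8 the log2 ratio of Nnmt was 0.34 (-0.09 to 0.77) and that of Lep was 1.45 (0.81 to 2.13).

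Cluster 8 held 43.5% and 54.6% of the Nnat UMIs, at 182 CPM (135 to 240) and 638 CPM (591 to 688), a log2 ratio of 1.81 (1.40 to 2.26). In clusters 0, 1 and 2 it went from 8.51, 8.69 and 10.8 CPM to 65.0, 72.3 and 99.5 CPM, log2 ratios of 2.93, 3.06 and 3.20. Outside cluster 8 it was at 78.6 CPM (72.2 to 85.3) in the library labelled Wtap-BKO, above the 48.6 CPM (40.8 to 57.4) of macrophage- and T-cell-like nuclei of that library, whereas in the control library the corresponding values were 8.90 and 23.7 CPM. By the share of nuclei with a UMI after thinning to 1000 UMIs the margin in the library labelled Wtap-BKO was within counting error, at 5.01% (4.30 to 5.80) against 3.93% (2.87 to 5.23). Fibroblast-like nuclei were at 65.2 and 113 CPM.

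Sncg had a different cluster. In the library labelled Wtap-BKO cluster 10, the cluster led by interferon-responsive genes, had 65 of the 141 Sncg UMIs, or 46.1%, with 8.02% of all adipocyte-like UMIs. Its level there was 97.5 CPM (75.2 to 124), against 6.57 to 12.9 CPM in the other 4 clusters and 7.09 CPM in macrophage- and T-cell-like nuclei. Cluster 10 of the control library had 0 Sncg UMIs among 127 nuclei. After thinning to 1000 UMIs, 0 of 70 such nuclei allow a share of nuclei with a UMI of up to 4.29%. Without cluster 10 Sncg had 2 and 76 UMIs, a log2 ratio of 5.20 (3.30 to 8.28), and its 9.94 CPM (7.83 to 12.4) in the library labelled Wtap-BKO overlapped the background of 7.09 CPM (4.33 to 10.95). Sncg was also higher in nuclei that were not adipocyte-like, with 1 and 58 UMIs, a log2 ratio of 5.04 (2.51 to 10.4). In cluster 10 the 6 B-cell markers summed to 0 and 10.5 CPM, the 8 macrophage markers to 121 and 145 CPM and the 6 T-cell markers to 0 and 67.5 CPM in the 2 libraries, and their part in the Sncg level was not tested.

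**Figure D2:**
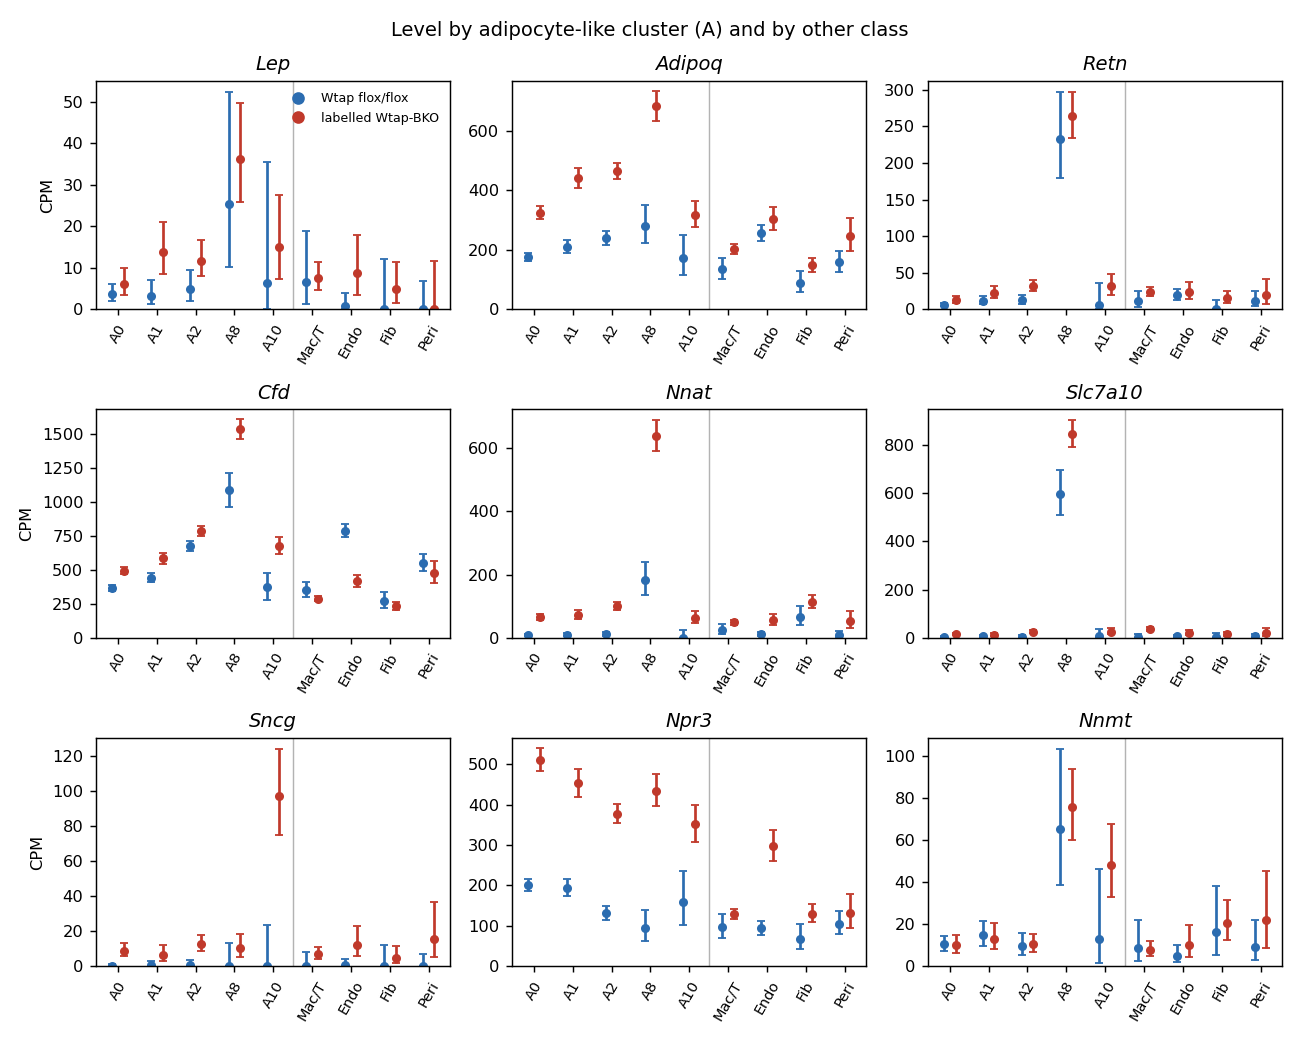
CPM of each gene (1 panel per gene, linear axes) in adipocyte-like clusters 0, 1, 2, 8 and 10 (A0 to A10) and, right of the grey line, in macrophage- and T-cell-like (Mac/T), endothelial-like (Endo), fibroblast-like (Fib) and pericyte-like (Peri) nuclei. Blue is the control library, red the library labelled Wtap-BKO, and bars are exact Poisson 95% intervals. Slc7a10 and Retn stand out in cluster 8 in both libraries, Sncg in cluster 10 of the library labelled Wtap-BKO, and Npr3 and Adipoq are higher in red across the adipocyte-like clusters.

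Single nuclei of the library labelled Wtap-BKO reached 29 UMIs of Nnat and 27 of Slc7a10, against 7 and 9 in the control library, and no nucleus had more than 3 UMIs of Lep, Sncg or Nnmt. A share of 50% of the Nnat UMIs lay in 59 nuclei of the library labelled Wtap-BKO, against 642 nuclei for Adipoq, 656 for Cfd and 497 for Npr3, but such a number also falls with a gene's total. The ratio of variance to mean over nuclei thinned to 1000 UMIs, which is 1 for UMIs spread at random, was 3.32 for Nnat and 2.74 for Slc7a10 in that library. This ratio tends to 1 as a gene's level falls, so it is not compared with that of genes of another level. Cfd, Npr3 and Adipoq, each with more UMIs, were at 1.58, 1.41 and 1.14.

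To compare detection at 1 depth, each nucleus was thinned to 1000 UMIs, which left out 3443 of 6725 adipocyte-like nuclei of the control library (median 989 UMIs) and 1090 of 4922 of the other (median 1473.5 UMIs). Clusters were left out unequally, cluster 0 keeping 2034 of 2570 and cluster 1 keeping 335 of 2319 control nuclei, against 1120 of 1150 and 757 of 1353 in the other library, so the pooled shares compare sets of different makeup. The share of nuclei with a UMI of Adipoq was 16.9% (15.6 to 18.2) and 33.2% (31.7 to 34.7), that of Npr3 15.3% and 30.9%, and that of Cfd 35.0% and 45.9%. The share for Nnat was 0.975% and 6.97%, for Slc7a10 1.65% and 6.21%, for Retn 1.52% and 4.12%, and for Lep 0.518% and 1.17%. Sncg was seen in 0 of 3282 nuclei, which by the limit of 3 counts allows a share of nuclei with a UMI of up to 0.0914%, and in 52 of 3832 nuclei, or 1.36%. Intervals of the 2 libraries were apart for 8 of the 9 genes, the exception being Nnmt at 1.19% (0.846 to 1.62) and 1.98% (1.57 to 2.48). The number was 9 with another random draw, 7 at 2000 UMIs and 7 without cluster 8, where the shares of Lep were 0.413% and 0.854% with intervals that overlapped. Inside each single cluster the intervals of Retn and Lep overlapped, though those of Retn were apart over all nuclei outside cluster 8. The same count was not made over all genes, so it does not set these 9 genes apart from others. Without thinning, the shares of Adipoq were 19.5% and 45.4% and those of Slc7a10 1.55% and 7.50%.

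Nuclei with a UMI of Npr3 held a mean of 1.21 and 1.41 UMIs of it after thinning, and those with Nnat 1.59 and 1.94 UMIs. At so few UMIs per nucleus, more nuclei with the gene and more of its RNA in each nucleus cannot be told apart.

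In the control library, and for some genes in the other, this detection did not stand out from macrophage- and T-cell-like nuclei, used here as background. Whether UMIs of the 9 genes in these background nuclei were their own RNA or free RNA was not tested. Among these nuclei, whose median depths were 910 and 1156 UMIs (184 and 1121 nuclei after thinning), Adipoq was seen in 12.5% (8.09 to 18.2) and 17.5% (15.3 to 19.8), Cfd in 31.0% (24.4 to 38.2) and 20.6% (18.3 to 23.1) and Npr3 in 8.15% (4.63 to 13.1) and 8.56% (6.99 to 10.4). In the control library only Npr3 had an adipocyte-like share whose interval lay above this background. In the library labelled Wtap-BKO 7 of the 9 genes did, the exceptions being Lep (1.17% against 0.535%) and Sncg (1.36% against 0.624%). This count was not made over all genes either. Outside cluster 8 of that library the shares of Retn (2.03%), Slc7a10 (1.68%), Nnmt (0.972%) and Nnat (5.01%) had intervals that overlapped the background. The background of Retn was 1.63% and 2.32%, that of Nnat 2.72% and 3.93%, that of Slc7a10 0.543% and 1.69% and that of Nnmt 1.63% and 0.535%. In the control library the intervals of the other 8 genes overlapped those of the 184 background nuclei, which rested on few positive nuclei (3, 5 and 3 for Retn, Nnat and Nnmt) and were wide. Outside cluster 8 the control shares of Retn, Nnat and Nnmt were 0.730%, 0.698% and 0.889%, below the background. By CPM, Adipoq in adipocyte-like nuclei of that library was above macrophage- and T-cell-like nuclei, at 201 CPM (191 to 212) against 134 CPM (103 to 171). Cfd, at 476 CPM (461 to 492) against 354 CPM (302 to 412), and Slc7a10, at 26.4 CPM (22.9 to 30.3) against 4.31 CPM (0.523 to 15.6), were also above it. For Retn (17.0 against 10.8 CPM) and Nnmt (13.3 against 8.63 CPM) the order was the same but the intervals overlapped, and Lep (4.62 against 6.47 CPM) and Nnat (15.2 against 23.7 CPM) were lower in adipocyte-like nuclei, again within counting error. In cluster 8 alone, Slc7a10 was seen in 30.5% (22.8 to 39.2) and 41.3% (36.7 to 46.1), Retn in 20.6% (14.0 to 28.6) and 20.3%, Nnat in 7.63% (3.72 to 13.6) and 22.1% (18.3 to 26.3) and Nnmt in 8.40% (4.27 to 14.5) and 9.82% of nuclei. Sncg was seen in 7.49% (4.81 to 11.03) of cluster 10 nuclei of the library labelled Wtap-BKO.

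**Figure D3:**
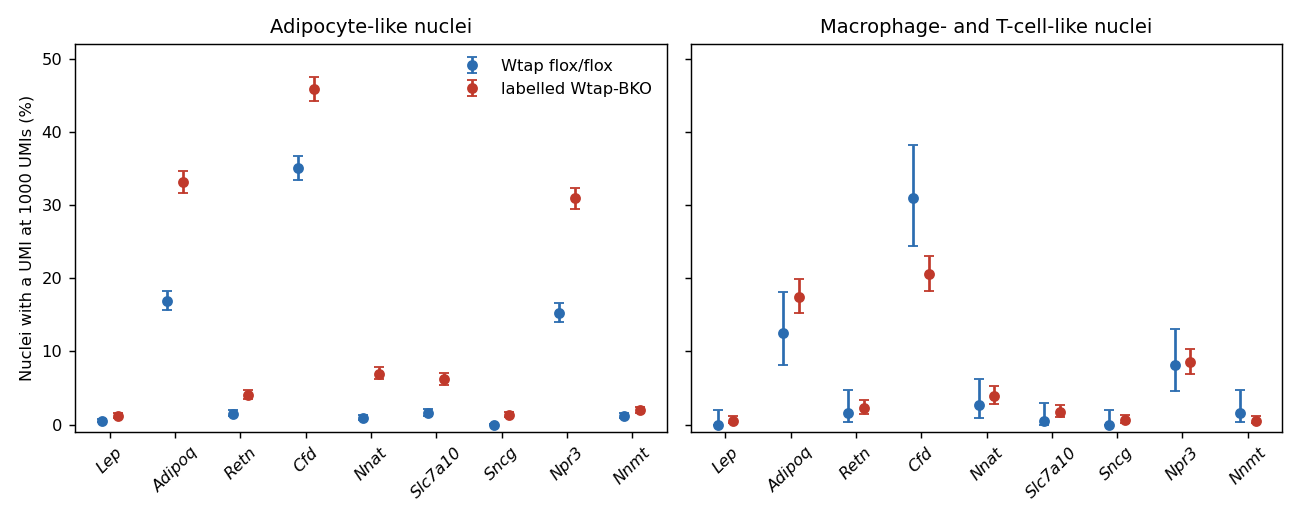
Share of nuclei with at least 1 UMI after thinning each nucleus to 1000 UMIs, in adipocyte-like nuclei (left) and in macrophage- and T-cell-like nuclei (right), with exact binomial 95% intervals. Blue is Wtap flox/flox and red the library labelled Wtap-BKO. On the left all red points lie above the blue ones, whereas on the right Cfd falls from 31.0% to 20.6%.

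By class, all 9 genes had a higher CPM in adipocyte-like nuclei than in each other named class of the library labelled Wtap-BKO. The margin was narrow for Nnmt and Sncg, at 22.0 CPM (8.85 to 45.3) and 15.7 CPM (5.10 to 36.7) in pericyte-like nuclei. In the control library this did not hold. Endothelial-like nuclei were at 254 CPM for Adipoq and 786 CPM for Cfd, above the 201 and 476 CPM of adipocyte-like nuclei, and Retn and Nnat were also no higher in adipocyte-like than in the remaining nuclei together (log2 ratios of -0.36 and -0.16). Slc7a10, Npr3 and Nnmt were higher there, with log2 ratios of 2.49 (1.73 to 3.36), 1.05 (0.86 to 1.24) and 0.83 (0.17 to 1.53). Unnamed nuclei, mostly those led by mitochondrial genes, had 340 and 745 CPM of Adipoq and 1360 and 1652 CPM of Cfd, above adipocyte-like nuclei of the same library, and 62.7 and 104 CPM of Retn, and Sncg was at 0 and 30.1 CPM there, from 0 and 18 UMIs.

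Which genes shared nuclei was asked in the thinned adipocyte-like nuclei, as the number of nuclei with both genes over the product of the single shares. Among 36 pairs in the library labelled Wtap-BKO, Retn and Slc7a10 shared most nuclei for their frequency, 48 nuclei or 4.89 times the product. Slc7a10 was seen in 30.4% (23.3 to 38.2) of the nuclei with Retn and in 5.17% (4.48 to 5.94) of those without. Retn with Nnmt gave 4.15, Slc7a10 with Nnmt 3.81, Lep with Slc7a10 3.22, Nnat with Slc7a10 2.71 and Nnat with Nnmt 2.64. Each of these 5 genes had a higher CPM in cluster 8 than over all adipocyte-like nuclei.

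Most of this excess lay between clusters rather than within them. With the product taken within each cluster, the same ratios were 1.26 for Retn with Slc7a10, 1.38 for Retn with Nnmt, 0.98 for Slc7a10 with Nnmt, 1.27 for Lep with Slc7a10, 1.05 for Nnat with Slc7a10 and 1.25 for Nnat with Nnmt. The median over the 36 pairs was 1.28 and fell to 1.04 within clusters. Retn with Nnat, 1.54 over all these nuclei, was 0.73 within clusters, from 17 nuclei. At least 2 of Lep, Retn, Nnat, Slc7a10 and Nnmt were seen in 129 of 3832 nuclei, or 3.37%, of which 117 were in cluster 8. There the share was 26.7% of 438 nuclei, against 24.4% from the product of the single shares, and outside it 12 of 3394 nuclei, or 0.354%, against 0.375%. In the control library 25 of 3282 nuclei, or 0.762%, had at least 2 of the 5 genes, and Retn and Slc7a10 met in 11 nuclei, 13.4 times the product and 1.32 times that within clusters.

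Some pairs met less often. Npr3 was seen with Nnmt in 12 nuclei, 0.51 times the product, and with Slc7a10 in 54 nuclei, 0.73 times the product. Slc7a10-positive nuclei had Npr3 in 22.7% (17.5 to 28.5) and Slc7a10-negative ones in 31.4% (29.9 to 33.0). In the control library the same pair met in 2 nuclei, 0.24 times the product. Sncg was seen with Lep or with Nnmt in 0 nuclei, where 0.61 and 1.03 would follow from the shares, so that nothing can be read from these zeros. Adipoq with Npr3 (0.96) and Cfd with Npr3 (0.97) were close to the product.

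**Figure D4:**
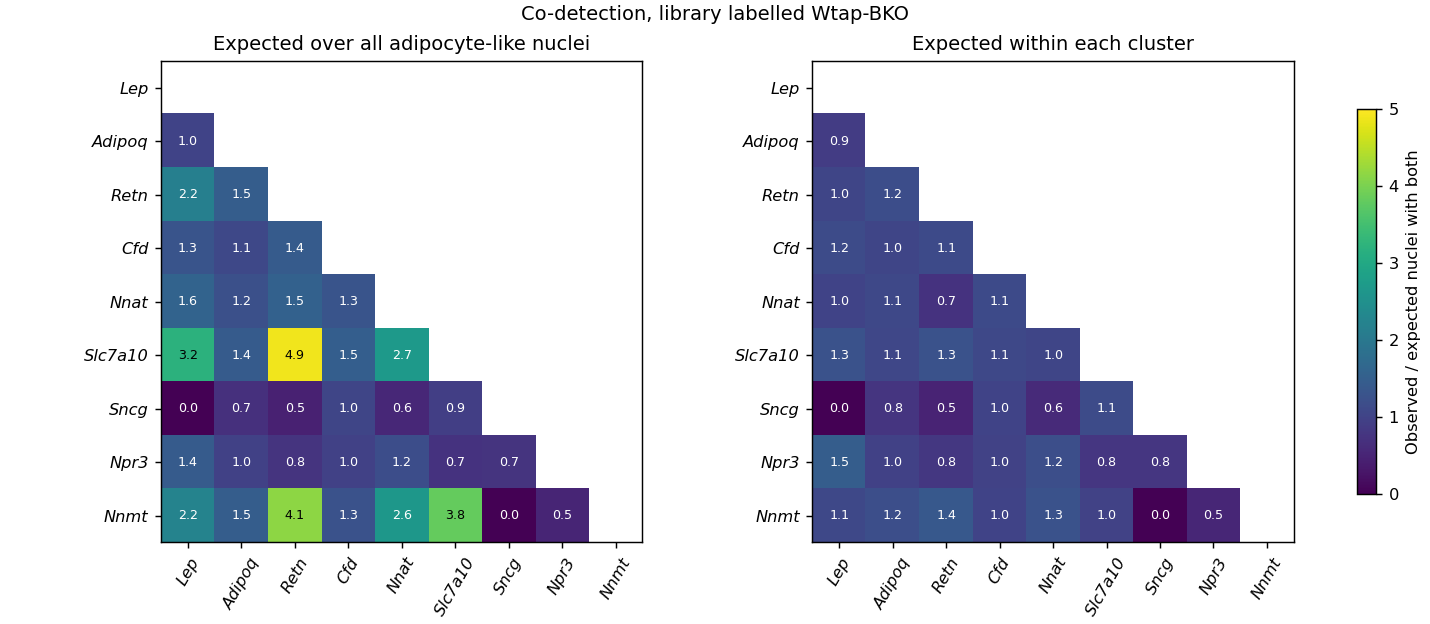
Number of thinned adipocyte-like nuclei of the library labelled Wtap-BKO with both genes of a pair, over the number given by the product of the single shares, taken over all adipocyte-like nuclei (left) or within each cluster (right). Colour runs from 0 to 5. The bright cells of Retn, Slc7a10, Nnmt, Nnat and Lep on the left are near 1 on the right, such as 4.89 and 1.26 for Retn with Slc7a10.

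Mitochondrial share moved with the groups and with some of these genes. Among adipocyte-like nuclei 22.9% and 78.5% had over 5% mitochondrial UMIs. Values of nuclei with over 25% are not reported here, so the strata below give no trend beyond 25%. Cfd in nuclei with up to 5%, 5 to 10% and 10 to 25% mitochondrial UMIs was at 418, 614 and 784 CPM in the control library and at 600.2, 720 and 813 CPM in the other, so that its log2 ratio was 0.52, 0.23 and 0.05 in these strata and the last interval, -0.09 to 0.20, held 0. Slc7a10 went the other way in both libraries, at 30.0, 17.1 and 8.56 CPM in the control library and at 280.5, 106 and 69.8 CPM in the other, with log2 ratios of 3.23, 2.64 and 3.03. Npr3 (1.22, 1.82 and 1.77), Nnat (3.67, 4.18 and 2.77) and Adipoq (0.99, 0.76 and 0.99) were higher in each of the 3 strata. Retn had 2.16, 1.98 and 0.73, the last with an interval of -0.03 to 1.61. Nnmt had 1.33 (0.85 to 1.80), 0.96 (-0.04 to 2.12) and 1.90 (0.30 to 4.22), the last on 3 control UMIs. Each was above its ratio of 0.74 over all adipocyte-like nuclei.

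Some of the genes overlap another gene, and how reads in the overlap were assigned was not given in the sources used here. Nnat lies inside Blcap, Slc7a10 overlaps Lrp3 and Npr3 overlaps Gm5144. Blcap had 1033 and 1602 UMIs in adipocyte-like nuclei, a log2 ratio of 0.50 (0.38 to 0.61), against 3.31 for Nnat. Lrp3 had 182 and 284 UMIs, a log2 ratio of 0.51 (0.23 to 0.78), and Gm5144 had 15 and 29 UMIs. Lrp3 and Gm5144 were looked up after the values of the 9 genes were seen.

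Other genes of the same pathways were counted over lists, which were also chosen with earlier results of these data known. Of 21 other secreted adipose factors, 14 had at least 20 UMIs, with 7 at a log2 ratio of at least 1, 3 at -1 or less and a median of 0.82. Over all 14070 genes, which is the background for each of these lists, 14.7% were higher and 4.21% lower by the same rule, with a median of 0.07. Among the higher ones were the chemokine gene Ccl2 (7 and 201 UMIs, 4.71), Gdf15 (3.95), Igf1 (3.33), Metrnl (1.47), Rbp4 (1.36) and Rarres2, which encodes chemerin (1.06). The lower ones were Nampt (-1.34), which makes NAD, Slit2 (-1.27) and the angiogenic factor Vegfa (-1.08), and Nrg4, a factor of brown fat, was at -0.12 (-0.16 to -0.08). Of 13 receptors and partners, 11 were measured, 3 were higher and none lower, with a median of 0.74. Cfb, the complement protein that adipsin cleaves, had 15 and 215 UMIs (3.71), and C5ar1 and the natriuretic receptor gene Npr2 were at 1.58 and 1.02, while Npr1, the guanylyl cyclase receptor that competes with Npr3, was at -0.84 and C3 at 0.79. Markers of some other cell types differed between the adipocyte-like nuclei of the libraries, with each marker of the lists in the next sentence detected in both. The 6 T-cell markers summed to 14.4 and 44.9 CPM, the 6 fibroblast markers to 58.2 and 122 CPM and the 8 macrophage markers to 107 and 138 CPM, whereas the 7 endothelial markers went from 82.5 to 53.5 CPM and the 6 pericyte markers from 82.2 to 33.9 CPM. The 6 skeletal muscle markers summed to 10.3 and 41.7 CPM, and to 11.9 and 176 CPM in cluster 1. The 6 dendritic-cell markers summed to 3.17 and 10.8 CPM. Of each of these 2 lists, 5 markers were detected in adipocyte-like nuclei of the control library. In the library labelled Wtap-BKO macrophage- and T-cell-like nuclei had more Ccl2 (68.1 against 24.2 CPM), Cfb (57.1 against 25.9 CPM), Metrnl (81.2 against 8.06 CPM) and C5ar1 (60.3 against 2.77 CPM) than adipocyte-like nuclei, and Igf1 was at 82.3 against 73.1 CPM. The part of such RNA in these values was not tested. The adiponectin receptor genes Adipor1 and Adipor2 were at -0.07 and 0.30, and Slc3a2 was at 0.92.

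Among 5 genes of NNMT substrates and methyl donors none was higher, 1 was lower and the median was 0.00. The lower one was Ahcy (-1.20) on 21 and 10 UMIs, and Aox1 was at 0.42 and Mat2a at 0.14. Of 8 other white adipocyte genes, 4 were measured and 3 were higher, Cyp2e1 (1.83), Trhde (1.67) and Hoxc8 (1.55, from 9 and 29 UMIs), with a median of 1.61, and Hoxc9 and Hoxc10 had 0 UMIs in both libraries. Of 9 adipogenic transcription factors, Srebf1 (1.47), Cebpa (1.43) and Cebpb (1.30) were higher, Pparg was lower (-1.09), and 5 lay between, with a median of 0.14 and Ebf2, a factor of brown adipocytes, at -0.83.

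Genes with the most similar pattern were sought over 10 points (5 adipocyte-like clusters in 2 libraries) among 5164 genes with at least 500 UMIs, by Pearson's r of log2(CPM + 10). The points share libraries and total counts. Retn and Slc7a10 were most like Cyp2e1, a cytochrome P450 gene, with r = 0.99 for each, and like each other (r = 0.99). The third gene was Chst1 for Retn (0.98) and Abcd2 for Slc7a10 (0.99). Adipoq was most like Bcap31 (0.97), Lpl, the lipoprotein lipase gene (0.97), and Aoc3 (0.96), and Cfd most like Retn, Slc25a1 and Isoc1 (0.93, 0.93 and 0.92). Among the genes most like Npr3 were Gprin3 (0.97) and Gm11290 (0.96). Lep was most like AI838599 (0.98), Ccnd2 (0.96) and Aacs (0.95), Nnat like Cyb5a, Podn and Tmem120b (each 0.97) and Nnmt like Tshz2 (0.97), Plpp3 (0.96) and Nav3 (0.95). Sncg was most like the immunoglobulin genes Igha and Igkc (0.94 each), which had 36 and 474 and 44 and 528 UMIs in adipocyte-like nuclei of the 2 libraries, and Mfge8 (0.93). Immunoglobulin transcripts are products of plasma cells, and their part in the Sncg pattern was not tested.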

How the data were processed

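The authors deposited raw UMI counts per gene and nucleus, counted with Cell Ranger 5.0.0 per the file headers, with at least 500 UMIs per nucleus. The submitters' processing notes name build mm10. The counting of intronic reads was not given in the sources used here. Nuclei were log-normalized, integrated by canonical correlation analysis and clustered in Seurat 5.3.0 (R 4.3.3; 2000 variable features without the 9 genes and Wtap, 20 principal components, resolution 0.5). A cluster was named from at least 3 markers, each with at least 10 UMIs and 2-fold over other clusters. A remaining cluster was adipocyte-like when at least 50% of 12 general adipocyte markers were 1.5-fold over the named clusters, within whichever library gave it more nuclei, and under 3 markers of another class passed, thresholds set after seeing the data. Cluster 6 had 3 of the 12 markers, and cluster 12 had 7 but also 4 markers of another class, so both stayed unnamed. Scrublet in scanpy 1.11.5 called 1 and 0 nuclei and was taken not to have worked, so doublets were kept and the 721 and 616 highest-scored nuclei were removed as an alternative. Counts were summed per library and class, and intervals computed in scipy 1.17.1 (exact Poisson, binomial and conditional binomial). Gene positions came from RefSeq (GRCm38.p6), which matched all 9 genes. The ratio, interval and thinning steps were tested on simulated data. The named genes were the 9 genes, Wtap, Blcap, the measured members of 5 lists and, for each of the 9 with at least 100 UMIs, the 3 genes with the highest correlation; some of these are not reported here. The genes and lists were chosen with earlier results of these data known. Depth was 10770604 and 13945673 UMIs.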

Additional observations from a re-analysis of the deposited data

Results flagged for a closer look

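The CPM of Cfd was higher in adipocyte-like nuclei of the library labelled Wtap-BKO and lower in endothelial-, macrophage- and B-cell-like nuclei, with intervals on opposite sides of 0. Its log2 ratio was 0.65 in adipocyte-like nuclei, -0.92 in endothelial-like nuclei (786 and 416 CPM), -0.35 in macrophage-like nuclei (341 and 268 CPM) and -2.16 in B-cell-like nuclei, which rested on 6 and 11 UMIs in 10 and 58 nuclei. In T-cell-like (-0.26), fibroblast-like (-0.22) and pericyte-like nuclei (-0.21) the intervals held 0, and in unnamed nuclei the ratio was 0.28 (0.14 to 0.43). At 10 to 25% mitochondrial UMIs the adipocyte-like ratio was 0.05 (-0.09 to 0.20). Macrophage-like nuclei are used here as background, and whether their Cfd UMIs were their own RNA or free RNA was not tested. With 1 library per genotype the difference between classes was not tested.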

How the results depend on the processing

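No paired analysis was possible because each genotype had 1 library. Across 12 alternatives (2 of them, leaving out clusters 8 and 10, chosen after seeing the data) each of the 9 genes kept a ratio above 0, and of 108 single-gene values 83 moved by less than their counting interval and 25 by more. Their ranges were 0.43 to 2.16 for Retn, 0.58 to 3.23 for Slc7a10, 0.34 to 1.33 for Nnmt and 1.08 to 1.45 for Npr3. With each adipocyte-like cluster given equal weight, the median ratio of the 9 genes was 0.93 instead of 1.58 and 4 instead of 7 genes reached 1. The median co-detection ratio was 1.28, 1.04 within clusters and 1.02 without cluster 8. Without a filter on low counts 4503 genes were at least 2-fold higher and 3029 lower, and with at least 100 UMIs 970 and 264, against 2068 and 592. Genes with few UMIs (Lep, Sncg, Nnmt) are limited by depth.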
